A study of Homo sapiens with 10 samples.

Results

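The 50 protein-coding genes described here run the cell cycle and DNA replication: cyclins and cyclin-dependent kinases, factors that license and fire replication origins, enzymes of DNA synthesis and nucleotide supply, E2F and RB proteins with the kinase inhibitors, and kinases and structural proteins of mitosis. They are a list of names, picked by what the genes do, out of 19111 autosomal protein-coding genes with a canonical transcript. The list and its groups were chosen with earlier results of these data known. All 50 genes could be placed on the map of nucleosome positions. The cells were human induced pluripotent stem cells (hiPSCs) of a single line, PB010.5, with a YFP-hGEMININ/mCherry-hCDT1 FUCCI reporter cassette, a fluorescent marker of cell cycle stage, in the EEF2 locus. Unfixed cells were treated for 5 min with micrococcal nuclease (MNase), which cuts the linker DNA between nucleosomes, at 10, 6, 3, 1 or 0.5 U, and each digestion gave 1 library that was read in a 150-bp and a 50-bp paired-end run. All groups were the same line in the same state. They differed in enzyme dose and, between the runs, in read length, sequencing instrument and depth, the 50-bp runs being labelled as low depth. The deposited pooled list holds 12921589 positions of 140 bp, each with a height score, so it holds no replicate and no value per MNase dose, and no p-value is given below.

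In cycling cells the passage from G1 into S phase is driven by E2F transcription factors, which are held in check by RB proteins until cyclin-dependent kinases phosphorylate RB. Genes needed at the entry to S phase are known E2F targets, whereas many genes needed in G2 and mitosis carry a cell cycle genes homology region (CHR) and CCAAT boxes, which bind the DREAM and MYB-MuvB complexes and the factor NF-Y. Pluripotent stem cells are known for a short G1 phase. Nucleosomes at active human promoters typically flank a depleted stretch upstream of the transcription start site (TSS), with the +1 nucleosome downstream of it and the −1 nucleosome upstream.

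For each gene the +1 position was the nearest midpoint at or downstream of the canonical TSS and the −1 position the nearest upstream, both within 1500 bp, and the gap was the distance between the pair of midpoints, which includes 140 bp under the positions themselves. Since 94.4% of midpoints lay on a 10-bp grid, a location is no finer than about 10 bp. Scores came in steps of 1.23, the median score over the list was 14.8, and a score is no finer than 1 step. Across the GC deciles of all genes the median +1 score ran from 14.8 to 27.1 and the median gap only from 210 to 240 bp. Each gene was therefore also ranked, as a percentile, among the genes of its own decile of GC content over 1000 bp around the TSS, and values over all genes are also given weighted to the GC deciles of the 50 genes. There is no replicate error. The median gap over all genes had an SD of 6.63 bp across the 22 autosomes, and the median +1 score an SD of 1.18, but these are medians over whole chromosomes and not the spread of a median over 50 genes. The list holds no RNA measurement, so whether a given gene was transcribed in these cells was not tested.

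Promoter stretches of 6 genes are shown first because the letters that E2F, CHR-binding complexes and NF-Y read lie in or beside the gaps described below. Each runs from 250 to 1 bases before the TSS on the gene's strand, is taken from RefSeq (GRCh38.p14), and has in capitals every match to an E2F site (TTTCCCGC, TTTCGCGC, TTTGCCGC or TTTGGCGC), a CHR element (TTTGAA) or a CCAAT box (CCAAT), on either strand. CDK1 (chr10:60778228-60778477, + strand), CDC20 (chr1:43358731-43358980, + strand) and TOP2A (chr17:40417897-40418146, − strand) are examples of the G2 and mitotic genes. Their gaps, 400, 470 and 510 bp, were wider than the median of 350 bp over the 17 such genes.
CDK1: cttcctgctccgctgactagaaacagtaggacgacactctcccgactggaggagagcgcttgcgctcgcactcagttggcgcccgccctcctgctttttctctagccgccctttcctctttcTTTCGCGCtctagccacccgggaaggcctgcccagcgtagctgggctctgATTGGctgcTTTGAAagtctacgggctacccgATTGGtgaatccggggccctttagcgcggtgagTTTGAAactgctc
CDC20: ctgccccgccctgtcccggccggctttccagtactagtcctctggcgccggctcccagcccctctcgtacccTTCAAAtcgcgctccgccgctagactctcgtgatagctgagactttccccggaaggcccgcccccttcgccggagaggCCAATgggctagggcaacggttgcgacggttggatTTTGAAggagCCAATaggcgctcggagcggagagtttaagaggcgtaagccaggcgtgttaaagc
TOP2A: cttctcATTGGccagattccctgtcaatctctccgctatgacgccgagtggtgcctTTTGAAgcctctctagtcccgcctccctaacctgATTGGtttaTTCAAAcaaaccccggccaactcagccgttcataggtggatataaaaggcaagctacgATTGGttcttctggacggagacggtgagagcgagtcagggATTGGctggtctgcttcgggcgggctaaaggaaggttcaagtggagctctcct
MCM6 (chr2:135876444-135876693, − strand), E2F1 (chr20:33686386-33686635, − strand) and CDT1 (chr16:88803539-88803788, + strand) are examples of the genes of S-phase entry. Their gaps were 440, 300 and 190 bp, against a median of 260 bp over the 20 such genes.
MCM6: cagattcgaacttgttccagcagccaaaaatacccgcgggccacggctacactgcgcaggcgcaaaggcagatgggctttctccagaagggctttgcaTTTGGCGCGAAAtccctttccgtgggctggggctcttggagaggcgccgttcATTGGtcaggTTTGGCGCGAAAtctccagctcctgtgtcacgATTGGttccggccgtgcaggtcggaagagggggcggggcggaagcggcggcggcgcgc
E2F1: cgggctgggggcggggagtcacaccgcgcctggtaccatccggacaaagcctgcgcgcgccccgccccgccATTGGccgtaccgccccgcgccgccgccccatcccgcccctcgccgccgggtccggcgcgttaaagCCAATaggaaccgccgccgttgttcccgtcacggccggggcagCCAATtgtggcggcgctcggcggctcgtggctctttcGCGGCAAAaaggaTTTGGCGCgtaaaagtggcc
CDT1: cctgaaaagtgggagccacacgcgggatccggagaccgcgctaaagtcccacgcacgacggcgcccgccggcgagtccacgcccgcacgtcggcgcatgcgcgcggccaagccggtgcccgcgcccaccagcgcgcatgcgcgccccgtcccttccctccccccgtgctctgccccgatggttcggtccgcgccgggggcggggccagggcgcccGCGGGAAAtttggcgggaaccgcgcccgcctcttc
At MCM6 the E2F matches come as a forward and a reverse match that overlap in TTTGGCGCGAAA, and this run occurs at a pair of places.

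The gap from the −1 to the +1 midpoint was wider at the cell cycle and replication genes than at protein-coding genes of the same promoter GC. The median gap over the 50 genes was 290 bp, with quartiles of 200 and 365 bp and a range of 110 to 585 bp. Over all genes the median was 220 bp, with quartiles of 170 and 305 bp, and weighting to the GC of the 50 genes gave 230 bp. A median of 150 bp thus lay between the flanking positions at the 50 genes, against 80 bp over all genes. At 5 genes (10%), CCNB2, CDK6, CDC6, RB1 and MAD2L1, the flanking positions overlapped and left no base between them, and 14.2% of all genes had no such base. The median percentile of the gap within the GC decile was 68.5. The gaps of the 50 genes had an SD of 115 bp, so their spread was wide beside the difference in medians, which is a description of 1 pooled list. With the 5′-most annotated start in place of the canonical one, the median gap fell to 250 bp and its percentile to 59.7, against 220 bp over all genes. The gap then changed by over 1.5 times at 9 of the 50 genes (18%), against 14.4% of all genes. It narrowed at RRM2 (420 to 190 bp), CENPA (410 to 160 bp), CDC25C (585 to 260 bp) and PLK1 (420 to 170 bp). It also narrowed at CCNE2 (260 to 115 bp), CCND3 (300 to 195 bp), CDKN1B (180 to 110 bp) and TK1 (250 to 150 bp). It widened at CCNB2 (125 to 245 bp). Over all genes the gap narrowed by that much at 1491 and widened at 1178.

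Measured from the canonical starts, most of the extra width lay upstream. The median −1 midpoint sat at −188.5 bp, against −120 bp over all genes and −127 bp with GC weighting, whereas the median +1 midpoint sat at 111.5 bp, against 110 and 113 bp. From the 5′-most starts the upstream difference was gone, with a median −1 midpoint at -119 bp against -114 bp over all genes. No midpoint lay in the 200 bp upstream of the TSS at 22 of the 50 genes (44%, 95% Wilson interval 31.2 to 57.7, counting error only), against 23.7% of all genes and 25.5% with GC weighting. From the 5′-most starts this share was 24.0%, against 20.7% of all genes, and without positions under the median score it was 74.0%, against 51.2%. The TSS itself lay inside a 140-bp position at 17 of 50 genes (34%), against 52.4% of all genes. A gap of at least 300 bp was found at 24 of 50 genes (48%), against 27.2% of all genes, and a gap under 200 bp at 11 (22%), against 36.9%. The gap exceeded the upper quartile of its GC decile at 21 genes, or 42%, where 25% of all genes do so. It fell below the lower quartile at 7 genes, or 14%, where 24% of all genes do so.

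**Figure D1:**
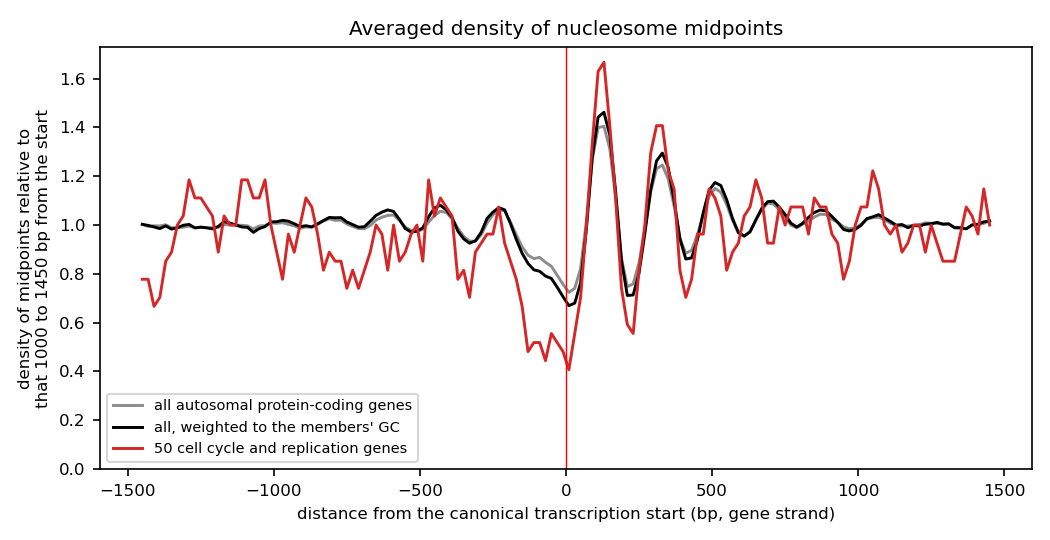
Density of nucleosome midpoints in 20-bp bins, smoothed over 100 bp, against the distance from the canonical TSS in bp, for the 50 genes (red), all autosomal protein-coding genes (grey) and all genes weighted to the GC of the 50 (black), each relative to its mean 1000 to 1450 bp away. The red line drops to 0.407 at 10 bp and rises to 1.67 at 130 bp, whereas the black line reaches 0.670 and 1.46 at the same distances.

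In the averaged profile the 50 genes had their lowest density at 10 bp, 0.407 of the flanking level, where the weighted profile of all genes had 0.670. The +1 maximum was at 130 bp in both, at 1.67 for the 50 genes and 1.46 for the weighted profile. Between 400 and 100 bp upstream the highest density was at −230 bp in both, at 1.07. Farther upstream the line of the 50 genes reached 1.19 at −470 bp and the weighted profile 1.08 at −430 bp. The value of 1.07 therefore does not mark out a −1 peak at the 50 genes. Downstream, the +2 position followed the +1 at a median of 170 bp, against 180 bp over all genes, which is within the grid. The number of positions within 1500 bp of the TSS was the same, with a median of 16 at the 50 genes and over all genes. With only 50 genes the profile is jagged, and its smaller ripples beyond 500 bp were not read.

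The position downstream of the TSS scored higher at these genes than over all genes, and the position upstream differed little. The median +1 score was 28.4, with quartiles of 19.4 and 39.5, against 23.4 over all genes and 24.7 with GC weighting, a difference of 3 steps from the latter. The median percentile of the +1 score within the GC decile was 59.9. The median −1 score was 16.0 against 17.3 over all genes, which is 1 step. Without positions under the median score the median −1 score was 24.7 against 23.4. The +1 score was at least 1.5 times the −1 score at 34 of 50 genes (68%), against 41.4% of all genes. Without positions under the median score this held at 19 genes, and at 23.9% of all genes. The reverse, a −1 score at least 1.5 times the +1 score, held at 8 genes (16%), against 18.6%, and these were CCNE2, CDC25B, ORC1, TYMS, E2F2, CDKN1B, MAD2L1 and CENPA. The +1 score lay above the upper quartile of its GC decile at 18 genes (36%), against 25.1% of all genes, and below the lower quartile at 10 (20%), against 25.3%. The mean score over the whole window was not raised. It exceeded the median of the GC decile at 20 of 50 genes (40%), against 50.2% of all genes, and its median was 19.2 against 19.5 with GC weighting.

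The bases under the +1 position were mainly 5′UTR and intron, in shares near those over all genes. Of the 7000 bases covered by the 50 +1 positions, 52.1% were 5′UTR of the canonical transcript, 26.6% intron, 17.7% coding sequence and 3.5% upstream of the TSS. Over all genes the shares were 47.1%, 26.4%, 20.0% and 6.4%. Some coding sequence was covered at 21 of the 50 genes, or 42%, and at 41% of all genes. Observed over expected CpG at the 50 promoters lay between 0.555 at CCND2 and 0.979, with a median of 0.820, against a median of 0.729 over all genes. The GC content over 1000 bp was between 55.2% and 82.0%, so none of the 50 fell in deciles 1 and 2, the poorest in GC.

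**Figure D2:**
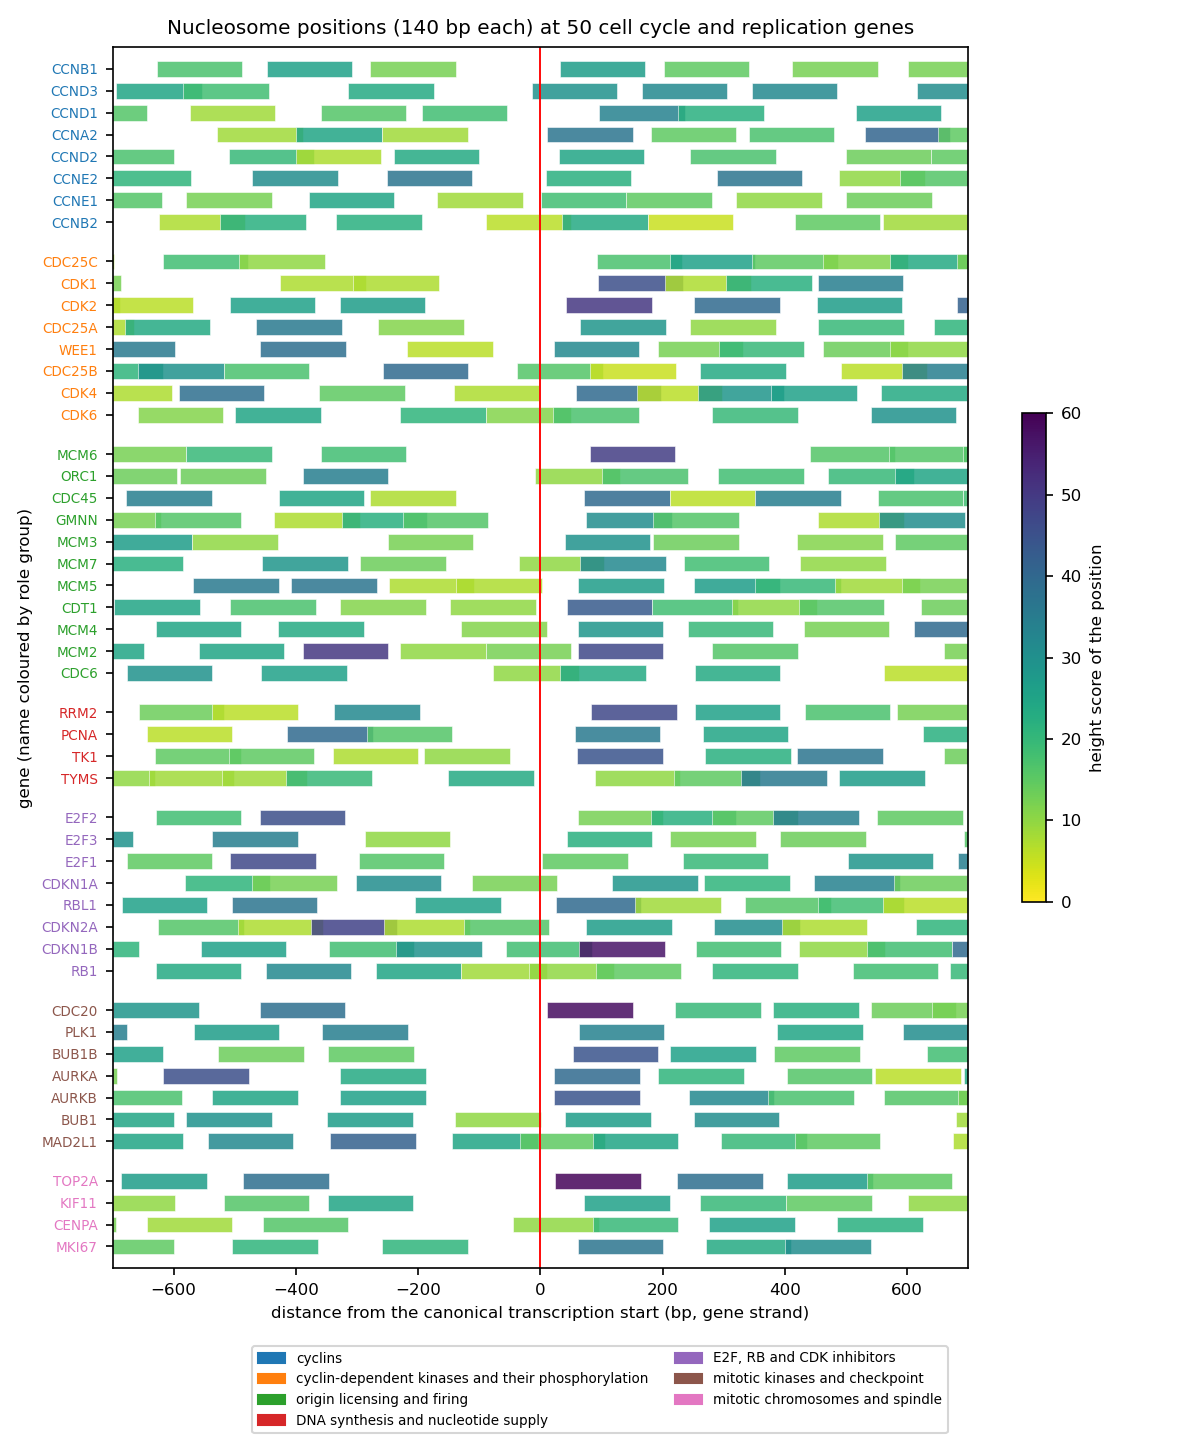
Every 140-bp nucleosome position within 700 bp of the canonical TSS (red line) of the 50 genes, 1 row per gene, ordered within role groups from the widest to the narrowest gap, with colour giving the height score. The white stretch across or left of the red line is widest at CDC25C (585 bp between midpoints), E2F2 (520 bp) and TOP2A (510 bp), and dark +1 positions follow it at TOP2A, CDC20 and CDK2.

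Cyclins, the regulatory subunits that switch cyclin-dependent kinases on, had a median gap of 270 bp over 8 genes. CCNB1, the mitotic cyclin B1, had the widest at 310 bp, with its +1 midpoint at 102 bp and its −1 midpoint at −208 bp. CCNB2 had the narrowest at 125 bp, because a position with a score of only 6.17, or 5 steps, had its midpoint at −19 bp. Measured from the 5′-most start, 20 bp upstream, that position counted as +1 and the gap of CCNB2 was 245 bp. The 3 D-type cyclins, which start the path to RB phosphorylation, had gaps of 290 bp at CCND1, 270 bp at CCND2 and 300 bp at CCND3 from the canonical starts, and of 290, 220 and 195 bp from the 5′-most starts. CCNA2 had the highest +1 score of the group at 37.0 and a −1 score of 8.64. CCNE1, a cyclin of S-phase entry, had the lowest +1 score at 18.5 and a gap of 170 bp. Its relative CCNE2 had a gap of 260 bp and a −1 score of 37.0 that exceeded its +1 score of 22.2, and from its 5′-most start a gap of 115 bp.

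The kinases and the enzymes that set their phosphorylation spread over the whole range of the 50, with a median gap of 285 bp over 8 genes. CDC25C, a phosphatase that activates CDK1 at mitotic entry, had the widest gap of all 50 genes at 585 bp, with midpoints at −423 and 162 bp. Its flanking scores were low, at 9.87 upstream and 17.3 downstream. CDK1, the mitotic kinase, had a gap of 400 bp, a +1 score of 45.7 at 164 bp and a −1 score of 7.40 at −236 bp. Since that −1 position was weak, the gap of CDK1 was 1080 bp without positions under the median score. CDK2 had a gap of 370 bp and a +1 score of 50.6, among the highest of the 50. CDK6, a partner of D-type cyclins, had a gap of 110 bp between a −1 position at −19 bp, with a score of 11.1, and a +1 position at 91 bp, with a score of 17.3. CDC25B had the lowest +1 score of the group at 16.0 and a −1 score of 39.5. WEE1, which holds CDK1 inactive, had a gap of 240 bp, CDC25A one of 330 bp and CDK4 one of 200 bp.

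Genes that license and fire replication origins had a median gap of 260 bp over 11 genes. MCM6, a subunit of the replicative helicase, had the widest at 440 bp, between midpoints at −289 and 151 bp, and its +1 score of 49.4 was the highest of the group. CDC6, which helps load the helicase, had the narrowest at 110 bp, with a −1 midpoint at −7 bp and a score of 9.87. The gaps of the 6 helicase subunits were 150 bp at MCM2, 290 bp at MCM3, 190 bp at MCM4, 200 bp at MCM5, 440 bp at MCM6 and 260 bp at MCM7. Their +1 scores were 46.9, 29.6, 28.4, 27.1, 49.4 and 9.87 in the same order. Without positions under the median score the +1 score of MCM7 was 32.1, and those of the other subunits were unchanged. From its 5′-most start the +1 score of MCM7 was 28.4. At MCM2 the −1 position at −19 bp had a score of only 12.3. Most of the helicase gaps turned on such weak positions. With positions under the median score left out they were 450 bp at MCM2, 750 bp at MCM3 and 490 bp at MCM4. At MCM5, MCM6 and MCM7 they were 470, 440 and 520 bp. MCM2 and MCM6 were then within 1 grid step and MCM3 stood apart. Over all genes the same setting moved the median gap from 220 to 340 bp, and 43.2% of gaps widened by over 1.5 times. ORC1, a subunit of the origin recognition complex, had a gap of 380 bp, a +1 score of 9.87 and a −1 score of 34.5, and CDC45, which joins the active helicase, had 350 bp, 39.5 and 7.40.

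CDT1 and GMNN, the loading factor and its inhibitor geminin whose fragments are the sensors of the FUCCI cassette, differed in layout. At CDT1 (ENSG00000167513.9), the 4 midpoints nearest upstream and 2 nearest downstream were at −627, −437, −257, −77, 113 and 253 bp. Their scores were 24.7, 17.3, 11.1, 9.87, 43.2 and 18.5, so the score fell toward the TSS and was highest just beyond it. The gap of CDT1 was 190 bp, at percentile 30.5 of its GC decile, while its +1 score was at percentile 96.6. The +1 position of CDT1, at chr16:88803832-88803971 (GRCh38), lay wholly in coding sequence. At GMNN (ENSG00000112312.10), the 3 midpoints nearest upstream and 2 nearest downstream were at −365, −255, −155, 145 and 255 bp, with scores of 7.40, 22.2, 16.0, 30.8 and 16.0. The gap of GMNN was 300 bp, at percentile 69.7, and its +1 position, at chr6:24775012-24775151, lay wholly in the 5′UTR, with a score at percentile 61.6. The CDT1 promoter has 73.6% GC and that of GMNN 57.7%, so their raw scores are less alike in rank than in value. With positions under the median score left out, the gap of CDT1 widened to 550 bp, since its −1 position has a score of 9.87, and that of GMNN stayed at 300 bp. The median over all genes was then 340 bp. The gap of CDT1 was then at percentile 74.1 and that of GMNN at 39.9, so their order by percentile turned. Whether reads from the reporter cassette, which holds fragments of both genes, were counted at these loci was not tested.

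The 4 genes of DNA synthesis and nucleotide supply had a median gap of 295 bp. RRM2, a subunit of ribonucleotide reductase, had the widest at 420 bp and the highest +1 score at 46.9, at percentiles 92.5 and 98.2 of its GC decile. PCNA, the sliding clamp of replication, had a gap of 340 bp and a +1 score of 35.8. TK1, thymidine kinase, had 250 bp and 44.4. TYMS, thymidylate synthase, had the narrowest gap at 240 bp and the lowest +1 score at 9.87, with a −1 score of 23.4. The +1 score lay above the upper quartile of its GC decile at RRM2 and TK1. From the 5′-most starts the +1 scores were 24.7 at RRM2, 7.40 at PCNA, 9.87 at TK1 and 9.87 at TYMS. The gap of RRM2 was then at percentile 35.4, and PCNA had the widest at 360 bp. Without positions under the median score the gap of RRM2 was at percentile 55.4, and TK1 had the widest at 570 bp.

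The E2F and RB genes and the kinase inhibitors had a median gap of 230 bp, the same as the weighted value over all genes. With every position kept, the E2F genes stood at the wide end, with 520 bp at E2F2, 330 bp at E2F3 and 300 bp at E2F1. E2F2 had a high position upstream, with a score of 45.7 at −389 bp, and a weak one downstream, with 12.3 at 131 bp. RB1, the retinoblastoma gene, had the narrowest gap at 110 bp and the lowest +1 score at 9.87, with weak positions on both sides of the TSS. Without positions under the median score its gap was 360 bp, and CDKN1B had the narrowest of the group at 180 bp. In that setting E2F1 stayed at 300 bp, at percentile 30.6, below RB1 and below CDKN1A at 420 bp. RBL1, a relative of RB1, had a gap of 230 bp and the highest +1 score of the group at 39.5 with every position kept. The inhibitor genes CDKN1A, CDKN1B and CDKN2A, which encode p21, p27 and p16, had gaps of 230, 180 and 200 bp.

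The mitotic kinases and checkpoint genes had a median gap of 350 bp over 7 genes. CDC20, an activator of the anaphase-promoting complex, had 470 bp and a +1 score of 58.0, at percentiles 97.2 and 97.5 of its GC decile. PLK1 had 420 bp and BUB1B 400 bp. AURKA and AURKB, the Aurora kinases, lie on different chromosomes. From their canonical starts they had the same layout on the grid, with midpoints at −257 and 93 bp, and +1 scores of 39.5 and 44.4. BUB1 had 180 bp, and MAD2L1, a spindle checkpoint gene, had the narrowest gap at 110 bp and the lowest +1 score at 14.8. The 5 genes of this group with at least 300 bp were therefore CDC20, PLK1, BUB1B, AURKA and AURKB (71.4%, against 27.2% of all genes). From its 5′-most start PLK1 had a gap of 170 bp, and the group median from the 5′-most starts was 350 bp. Measured from those starts, the flanking midpoints were at −135 and 215 bp at AURKA and at −232 and 118 bp at AURKB.

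The 4 genes of mitotic chromosomes and the spindle had gaps of at least 320 bp and a median of 415 bp from the canonical starts. From the 5′-most starts the median was 300 bp, with 160 bp at CENPA and 280 bp at KIF11. TOP2A, which untangles sister chromosomes, had 510 bp between midpoints at −416 and 94 bp, and the highest +1 score of all 50 genes at 59.2. KIF11, a spindle motor, had 420 bp with a +1 score of 25.9. CENPA, the histone variant of centromeres, had 410 bp with the lowest +1 score of the group at 9.87. From the 5′-most starts the +1 scores were 33.3 at CENPA, still the lowest of the group, and 48.1 at KIF11. MKI67, the proliferation marker, had 320 bp with a +1 score of 37.0.

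**Figure D3:**
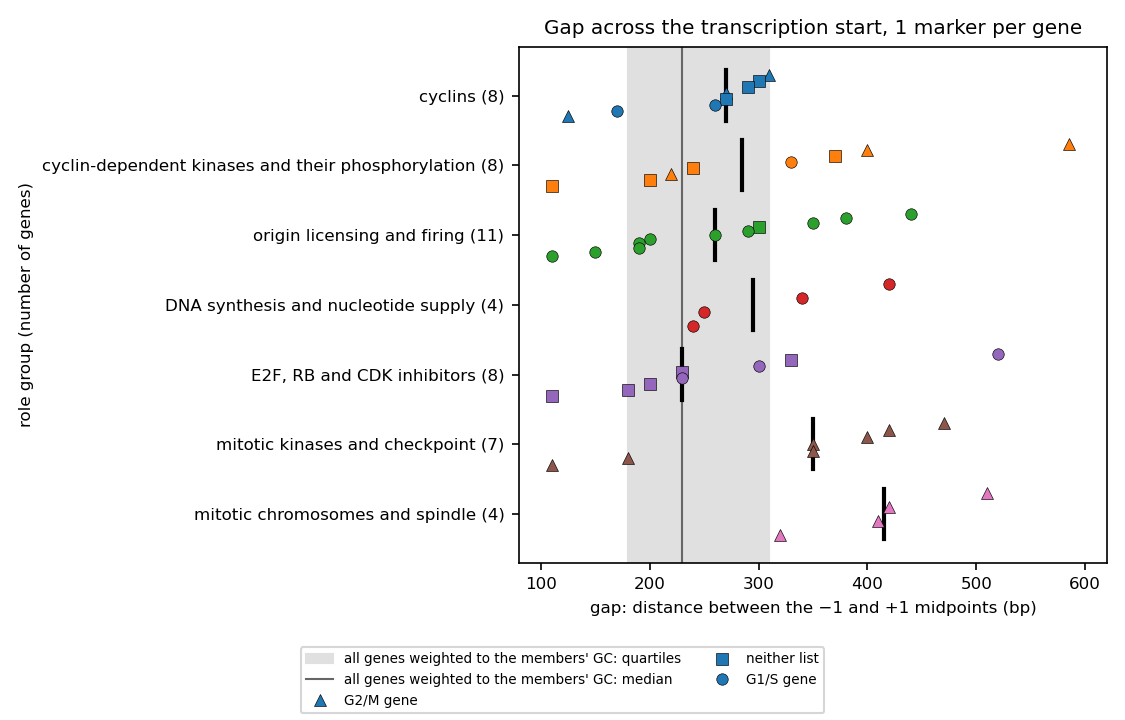
Gap between the −1 and +1 midpoints in bp, 1 marker per gene and 1 row per role group, with circles for G1/S genes, triangles for G2/M genes and squares for genes in neither list. Black bars are group medians, and the grey band and line are the quartiles and median over all genes weighted to the GC of the 50. The bars of the mitotic groups, at 350 and 415 bp, lie right of the band, and that of the E2F, RB and inhibitor genes lies on the line at 230 bp.

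The genes were also split by the phase in which they are known to be expressed. The 17 G2/M genes had a median gap of 350 bp (quartiles 270 and 420 bp) and the 20 G1/S genes one of 260 bp (quartiles 197.5 and 342.5 bp), and the ranges overlapped, from 110 to 585 bp and from 110 to 520 bp. The 13 genes in neither list had a median of 240 bp. A gap of at least 300 bp was found at 12 of 17 G2/M genes and at 8 of 20 G1/S genes, against 27.2% of all genes. No midpoint lay in the 200 bp upstream of the TSS at 11 of 17 and 8 of 20, against 23.7% of all genes. G1/S promoters were richer in GC, with a median of 64.9% against 57.8%, and the median gap percentile within the GC decile was 82.1 for G2/M and 62.8 for G1/S genes. The difference of 90 bp shrank to 35 bp from the 5′-most starts and to 50 bp when the gap was the widest distance near the TSS.

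The order of the phases also depended on weak positions. With positions under the median score left out, the median gap was 410 bp for G2/M and 480 bp for G1/S genes, against 340 bp over all genes, and the difference of G1/S minus G2/M turned from -90 to 70 bp. The percentiles turned as well, to 68.7 for G2/M and 78.4 for G1/S genes. The role groups changed places too. The median gap then was 490 bp for the licensing and firing genes, 465 bp for the genes of mitotic chromosomes and the spindle, 450 bp for the kinases, 395 bp for DNA synthesis, 390 bp for the mitotic kinases and checkpoint genes, 335 bp for the cyclins and 330 bp for the E2F, RB and inhibitor genes. From the 5′-most starts the group medians ran from 215 bp for DNA synthesis to 350 bp for the mitotic kinases and checkpoint genes. Of the 50 genes, 23 had a −1 score under the median of the list (46%), against 37.5% of all genes. A +1 score under it was found at 6 (12%), against 20.2%. With the 5′-most starts instead, the −1 share was 42% against 35.7%, and the +1 share 22% against 23.03%. The lower +1 share therefore held only from the canonical starts. With weak positions kept or left out, the gap was the same at 6 of 20 G1/S and 10 of 17 G2/M genes (30% and 58.8%). Over all genes 51.1% had the same gap. Without weak positions the gap widened by over 1.5 times at 22 of the 50 genes (44%), against 43.2% of all genes. These were 11 G1/S genes, 5 G2/M genes and 6 in neither list. Among the G1/S genes they were MCM2, MCM3, MCM4, MCM5, MCM7 and CDT1, given above, and CDC6 (110 to 490 bp), TK1 (250 to 570 bp), CCNE1 (170 to 380 bp), CDC25A (330 to 530 bp) and TYMS (240 to 370 bp). Among the G2/M genes they were CDK1 (400 to 1080 bp, then the widest of the 50), CCNB2 (125 to 370 bp), BUB1 (180 to 390 bp), CCNA2 (270 to 410 bp) and CCNB1 (310 to 480 bp). In neither list were RB1 (110 to 360 bp), CDK6 (110 to 250 bp), CDK4 (200 to 420 bp), WEE1 (240 to 480 bp), CDKN1A (230 to 420 bp) and E2F3 (330 to 580 bp). The median percentile of the gap over all 50 genes did not depend on weak positions in this way, since it was 68.6 with them left out. Which genes were wide did depend on them. The median percentile fell from 62.5 to 44.3 for the cyclins and rose from 62.8 to 81.5 for the licensing and firing genes.

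**Figure D4:**
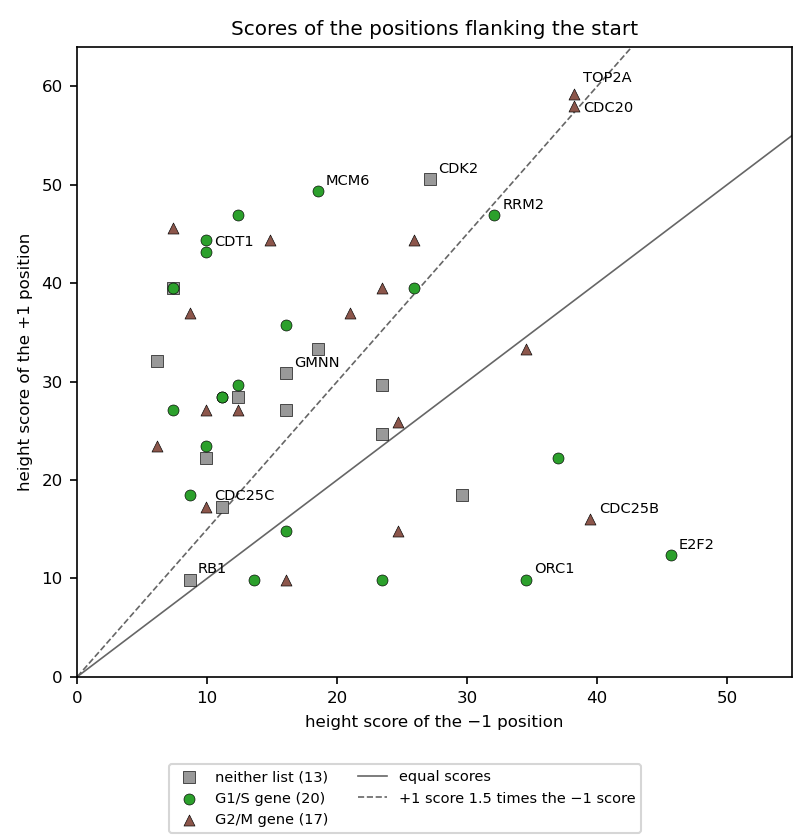
Height score of the +1 position against that of the −1 position, 1 marker per gene, for G1/S genes (circles), G2/M genes (triangles) and genes in neither list (squares), with lines for equal scores and for a +1 score of 1.5 times the −1 score. Most markers, 34 of 50, lie on or above the dashed line, and E2F2 and ORC1 lie far below the solid line. A few markers with equal scores overlap.

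The named E2F, CHR and CCAAT letters were searched in the window from 250 bp upstream to 50 bp downstream of the TSS, on both strands. An E2F match was found at 18 of 50 genes (36%), against 4.37% of all genes. The G1/S genes held most of them, with 13 of 20, against 2 of 17 G2/M genes. A CHR match was found at 16 of 50 genes (32%), against 11.4% of all genes and 7.72% with GC weighting. It was found at 13 of 17 G2/M genes and 0 of 20 G1/S genes. Of the 18 CHR matches at G2/M genes, 12 lay within 70 bp upstream of the TSS, at 10 genes. Of the CHR matches of all genes 17.3% lay there, at 2.15% of all genes. A CCAAT match was found at 35 of 50 genes (70%), against 35.7% of all genes, at 16 of 17 G2/M and 14 of 20 G1/S genes. Since E2F, CHR and CCAAT letters are a known feature of these genes, their presence is background to the map and not a finding of it. Of the matches, 4 pairs of E2F matches overlapped each other and 2 pairs overlapped between motifs.

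**Figure D5:**
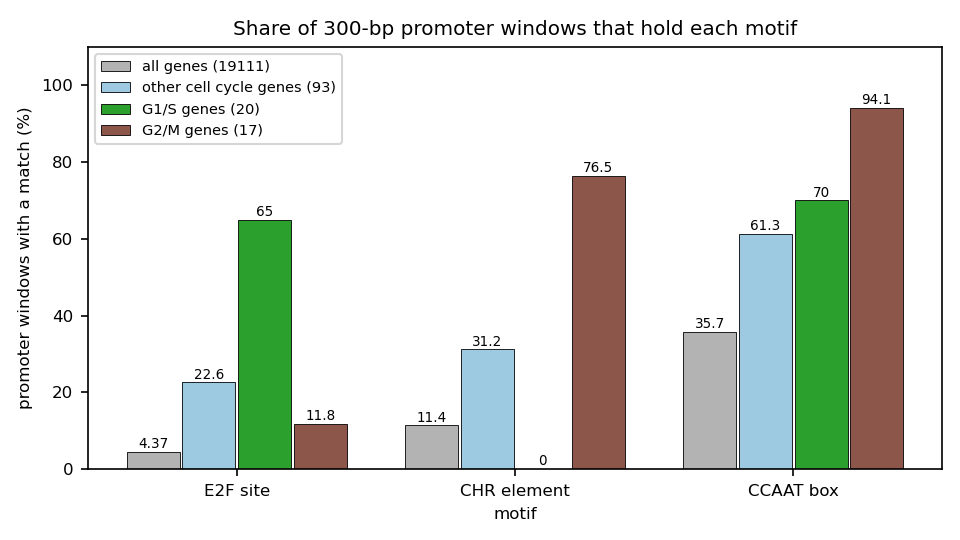
Percent of promoter windows (250 bp upstream to 50 bp downstream of the TSS) with at least 1 match to the E2F, CHR or CCAAT letters on either strand, for all genes, 93 other cell cycle genes, and the G1/S and G2/M genes. E2F bars are highest for G1/S genes at 65.0% and CHR bars for G2/M genes at 76.5%, with 0 among the G1/S genes.

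Most matches lay outside the called positions. Over the 50 genes, 67.5% of the matches to the 3 motifs were not touched by any 140-bp position (95% Wilson interval 58.8 to 75.1, counting error only; matches at 1 gene are not independent). For CHR this was 17 of 21 matches (81.0%), in windows of which 67.8% of bases were outside positions. For CCAAT it was 51 of 74 (68.9%), in windows with 58.4% outside, and for E2F 15 of 28 (53.6%), in windows with 50.1% outside. Over all genes the shares were 40.9% for CHR, 48.9% for CCAAT and 46.9% for E2F. The window itself was more open at these genes, with a median of 53.3% of its bases outside positions, against 36.7% over all genes and 70% at the G2/M genes. A letter match is not a bound site, and no factor binding was measured.

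In the sequences printed above, the CHR and CCAAT capitals of CDK1, CDC20 and TOP2A were all free of positions. These genes had gaps wider than the G2/M median, so this is not read as typical of the G2/M genes. Over the 17 G2/M genes, 15 of 18 CHR and 25 of 31 CCAAT matches were free. The others lay inside positions at CCNB2, CENPA, MAD2L1 and BUB1. The G2/M windows with a match had 71.6% (CHR) and 63.0% (CCAAT) of their bases outside positions. In CDK1, CHR matches began at −69 and −13 bp and CCAAT matches at −78 and −46 bp. In CDC20 the CHR match beginning at −65 bp was followed by a CCAAT match at −55 bp, 143 and 134 bp from the nearest midpoint. TOP2A had CHR matches beginning at −194 and −151 bp and CCAAT matches at −244, −160, −93 and −53 bp. At MCM6 the E2F matches, beginning at −152, −148, −90 and −86 bp, lay 141 to 207 bp from the nearest midpoint, inside its 440-bp gap. At E2F1 the E2F matches at −33 and −20 bp were also free, 102 and 89 bp from a midpoint. At CDT1 the match beginning at −35 bp lay inside the −1 position, 46 bp from its midpoint, and at MCM2 and CDC6 the matches just downstream of the TSS lay inside the −1 positions that closed their gaps. With positions under the median score left out, 91.1% of the matches at the 50 genes were free, and 72.8% of those over all genes, against 67.5% and 45.5% with every position kept.

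A protein-coding gene on the opposite strand started within 1000 bp upstream at 7 of the 50 genes (14%), against 9.79% of all genes. These were CDK2 with PMEL 788 bp away, CDC45 with UFD1 at 727 bp, MCM4 with PRKDC at 805 bp, MCM7 with AP4M1 at 246 bp, ORC1 with PRPF38A at 179 bp, TK1 with AFMID at 310 bp and AURKA with CSTF1 at 430 bp. Their gaps ran from 190 to 380 bp with a median of 350 bp, and all genes with such a neighbour had a median of 260 bp. Without these 7, the median gap of the other 43 genes was still 290 bp.

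A further 93 cell cycle genes, listed for comparison from the same pathways, had gaps between those of the 50 genes and of all genes. Their median gap was 250 bp at a median percentile of 60.8, and 33 of 93 had a gap of at least 300 bp (35.5%, against 27.2% of all genes). By subgroup, the median gap was 230 bp over 36 further licensing and replication genes, 260 bp over 31 further cell cycle regulators and 285 bp over 26 further mitotic genes. This order did not hold under other settings, with 342.5, 460 and 430 bp without positions under the median score and 235, 250 and 245 bp from the 5′-most starts. On other measures the 93 genes lay outside the range of the 50 and of all genes. Their median −1 score was 13.6, against 16.0 and 17.3, a divergent neighbour was found at 19.4%, against 14% and 9.79%, and 3 of their 22 E2F matches lay outside positions (13.6%), against 53.6% and 46.9%. The windows with an E2F match had 34.8% of their bases outside positions at the 93 genes, against 50.1% and 45.4%. No midpoint lay in the 200 bp upstream of the TSS at 30 of the 93 (32.3%, against 23.7%). Their +1 score was at least 1.5 times the −1 score at 53 of 93 (57.0%, against 41.4%). CHR matches were found at 29 of them (31.2%, against 11.4% of all genes), E2F matches at 21 (22.6%, against 4.37%) and CCAAT matches at 57 (61.3%, against 35.7%).

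Gap and composition were only loosely related. Across the 50 genes Spearman's rho between GC content and gap was -0.26, and between gap and +1 score 0.32, against 0.05 and 0.16 across 18569 genes. Between observed over expected CpG and gap, rho was -0.12 across the 50 genes and 0.15 across 18569 genes. The percentiles and weighting above used GC content and not CpG. These are given across genes, which share 1 pooled list and are not independent replicates.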

How the data were processed

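MNase-seq was done on 1 hiPSC line at 5 enzyme doses, 1 library per dose, each sequenced at 2 read lengths. The authors trimmed reads (Trimmomatic 0.40), aligned them to GRCh38, masked blacklisted regions and used nucMACC, a workflow for MNase titrations. The deposited list gives, per 140-bp position, a signal (a height score that is never negative), with no read totals, so the depth behind each score is unknown. By the study's methods the profiling step failed on the shallow 50-bp runs, which were not taken further, and the same libraries were sequenced again more deeply as 150-bp reads. The list itself names neither its runs nor its position caller, and how its scores were scaled is not given in the sources used here. The scores are whole multiples of 1.23 in 99.999845% of positions (tolerance 0.01 step).

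The list was used without a filter. Starts came from the Ensembl canonical transcripts of GENCODE 44. Of 19111 autosomal protein-coding genes, 542 had no midpoint on both sides within 1500 bp and were left out of gaps, which leaves 18569. Percentiles are mid-ranks within 10 GC bins. RefSeq promoters matched the canonical start of 40 of the 50 genes.

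The genes, their groups and the lists were chosen with earlier results of these data known. CDT1 and GMNN are named in full. Otherwise named by rule are the widest and narrowest gap and the highest and lowest +1 score of each group and the 5 most extreme over all 50, and other genes where a count is small or a group is listed out. No test was made, since 1 pooled list has no replicates. Alternatives were other starts, score and GC settings and other definitions of +1, −1, gap and coverage. Python 3.11.15, NumPy 2.4.6, pandas 2.3.3, SciPy 1.17.1 and matplotlib 3.10.9 were used, and the measures were tested on simulated data.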

Additional observations from a re-analysis of the deposited data

How the results depend on the processing

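Each of 14 values was recomputed under alternatives, 57 in all, of which 11 were chosen after seeing the data; 30 stayed within 1 grid step, 1 score step, the Wilson interval or 1.5 times a count. No paired analysis was possible because the pooled list carries no replicate. With the 5′-most start the median gap was 250 bp, its percentile 59.7, the empty share 24.0%, the +1 score percentile 57.3, the −1 location -119 bp and the difference of G1/S minus G2/M gaps -35 bp. When weaker positions (below the median score) were dropped, the difference of the phases reversed to 70 bp; the gap was 420 bp, the empty share 74.0%, the +1 location 124.5 bp, the +1 score percentile 56.4, the −1 location -283 bp, the −1 score 24.7, the distance from +1 to +2 205 bp, the uncovered motif share 91.1%, the genes with at least 300 bp 41 and those with a +1 score at least 1.5 times the −1 score 19. Dropping positions can only widen a gap (at 23 genes it was the same), and over all genes the median gap then was 340 bp and the share with at least 300 bp 62.4%. Without genes with a divergent neighbour the difference of the phases was -115 bp, and with the widest distance near the TSS -50 bp. The highest-scoring midpoint gave a +1 at 130.5 bp with a score of 30.2 and percentile 55.4, and a −1 at -278.5 bp with a score of 25.3. GC content over 300 bp gave a +1 score percentile of 62.7. The share empty over 150 bp was 62.0%. With coverage set at 40 bp from a midpoint, 78.0% of matches were uncovered. Of 33 alternative values for the median gaps of 11 gene groups and lists, added later, 23 moved by more than 1 grid step. Beside all genes under the same setting, the −1 location from the 5′-most starts (all genes -114 bp) was no longer further upstream by more than the grid, and the −1 score turned from 1 step below to 1 or more above without weak positions (all genes 23.4) and with the highest-scoring midpoint (all genes 23.4).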

Other observations

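Several of the genes have further annotated starts, and the layout there differed. At 31 of the 50 genes the 5′-most annotated start was not the canonical one, and at 12 it lay more than 1500 bp away. The same counts over all genes are not given, so these are not read as a trait of the 50. RRM2 had a gap of 190 bp at a start 2041 bp upstream, against 420 bp at the canonical one. PLK1 had 170 bp at a start 1233 bp upstream, against 420 bp, CENPA 160 bp at 21767 bp upstream, against 410 bp, and CDC25C 260 bp at 6551 bp upstream, against 585 bp. At CDKN2A, which encodes p16 from the canonical start and ARF from a start upstream, the 5′-most start 20444 bp away had a gap of 160 bp, against 200 bp. PCNA had 360 bp at a start 6668 bp upstream, against 340 bp, which is 2 grid steps. These genes were chosen after their values were seen, and which of their starts is used in these cells was not tested.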
